A study of Bos taurus with 32 samples.

Results

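The interleukin 1 family is a small group of cytokines that start and restrain inflammation, and its members were measured here in the endometrium of repeat breeder (RB) and non-RB cows. Of 6 named genes (IL1A, IL1B, IL1RN, IL1R1, IL1R2 and IL18), 4 had a probe, with 1 probe each among the 15208 probes of the array (5663 distinct gene symbols), and the receptors IL1R1 and IL1R2 were not measured. A probe was assigned to a member by its gene name or its bracketed symbol, and IL1A by its probe name. The family was selected on differences already seen on these same arrays between the caruncular (CAR) and intercaruncular (ICAR) areas and between RB and non-RB cows. Those differences are therefore given for the members as a description, with no p-value, and nothing is read from which of them passed a threshold on it.

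All tissue came from non-lactating Japanese Black cows and was taken on Day 15 after estrus. RB cows had not conceived after repeated inseminations although the uterus and ovaries felt healthy on palpation. Non-RB cows had conceived, had that pregnancy ended with a prostaglandin F2α analogue and had then cycled normally, a treatment that RB cows had not received. CAR and ICAR were dissected from the horn ipsilateral or contralateral to the corpus luteum, which gave 8 groups of 4 arrays and 32 arrays in all. The tissue came from 4 RB and 4 non-RB cows, so arrays of different areas and horns share animals. The labels number the arrays of each group 1 to 4 and do not say whether the same number is the same cow.

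CAR are the gland-free knobs of the bovine uterus to which the placenta attaches, and ICAR is the gland-bearing endometrium between them. IL1A and IL1B are the agonists of the family and act through the receptor IL1R1, which signals through MYD88, while IL1R2 binds them without signalling. IL1RN is the natural receptor antagonist, and IL18 is a related cytokine that, like IL1B, is made as a precursor and cut by CASP1. In bovine endometrium IL-1 is known as a stimulus of prostaglandin output.

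The sequences that follow identify what was measured: they are the first 30 bases of each 60-base probe, written 5′ to 3′ in lower case as the deposited scanner output gives them.

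IL1A: caaagtgccttttccattgtcatgaacttc
IL1B: aataactgtggaaccaatttccgggttaga
IL1RN: tgtgtgttgtatatgttgagtggaaagtgt
IL18: tcaaagaagtgttccaggacatgatgataa

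No member probe shared a run of 20 bases with any other probe on the array (0 other probes for each member). The longest run shared by a pair of member probes was 6 or 7 bases. GC content was 45% for the IL1A and IL1B probes, 36.7% for IL1RN and 35% for IL18, against a median of 43.3% over all probes. In the gene order of the bovine reference table (ARS-UCD2.0), IL1A and IL1B lie on the same chromosome with 1 protein-coding gene between them. IL1RN lies on that chromosome with 6 such genes between it and IL1B, IL1R1 and IL1R2 are adjacent to each other on it, and IL18 is on another chromosome.

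Values are log2 signals set against the 75th percentile of their own array, so that 0 is the level of that percentile and -1 is a signal 2-fold lower. Different probes bind with different strength, and levels were compared only between arrays of the same probe. As intensity, IL1A ranged from 13.3 to 1402 (median 113) and IL1B from 14.5 to 230 (median 44.4) over the 32 arrays, where the median probe of an array lay between 158 and 775. Both agonists were thus dim on most arrays, being well above background on 30 and 31 of 32 arrays. IL1RN ranged from 312 to 1081 and IL18 from 129 to 2423, and both were well above background on every array.

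Not every array lay with its labelled area. The mean of 3 gland markers (FOXA2, SPDEF and BPIFB1, the 3 usable of 6 listed) had a median of -2.30 on CAR arrays and 0.16 on ICAR arrays, and 5 arrays lay nearer the median of the other area. The array labelled RB CAR contralateral 3 had a gland mean of 0.75, and the array labelled RB ICAR contralateral 3 had -3.11. The arrays labelled non-RB ICAR ipsilateral 2 and 3 had -2.07 and -1.89, and the array labelled RB CAR ipsilateral 2 had -0.83. A position was also computed over all probes well above background on 8 or more arrays, positive towards CAR and negative towards ICAR. It used the area means of arrays not sharing an array's cow group and number. By position the 5 also lay on the other side, as did non-RB CAR ipsilateral 1 (-0.32) and 4 (-0.65). So did non-RB CAR contralateral 1 (-0.63) and non-RB ICAR contralateral 2 (0.49). The 5 were chosen by gland level alone. Every array was kept under its label, and the members' differences that rest on these 5 are also given without them. That selection was made after the data were seen, and leaving out arrays by their gland level widens by construction the difference of any gene that follows the glands.

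IL1A, the agonist that is active without processing, had the higher mean in CAR in both horns of RB and of non-RB cows. Over 16 arrays an area its level was -3.71 ± 1.46 (SD) in CAR and -5.88 ± 1.45 in ICAR, a difference of 2.17 (SE 0.50, 95% interval 1.15 to 3.19), which is 4.51-fold. IL1B, the agonist released through CASP1, was -5.50 ± 0.80 in CAR and -6.55 ± 0.94 in ICAR, a difference of 1.04 (SE 0.30, 0.43 to 1.66). IL1RN differed by 0.12 (SE 0.12, -0.13 to 0.37) and IL18 by -0.37 (SE 0.24, -0.85 to 0.12), the only member lower in CAR. The arrays entered this fit as independent although they share cows. In whole tissue a lower share of cells that express a gene and less RNA per cell cannot be told apart.

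In the ipsilateral horn of RB cows, IL1A measured -3.73, -5.17, -2.07 and -2.88 in CAR of replicates 1 to 4 and -7.45, -6.66, -6.42 and -6.68 in ICAR. The lowest CAR array lay above the highest ICAR array, so the areas did not overlap, and the difference was 3.34 (2.03 to 4.65), or 3.91 (2.96 to 4.85) without CAR replicate 2. ICAR replicate 1 was not well above background there. In the contralateral horn of RB cows, IL1A measured -3.77, -2.69, -6.64 and -2.47 in CAR and -5.91, -6.57, -2.06 and -6.26 in ICAR. Both arrays labelled replicate 3 stood apart from their groups, CAR at its bottom and ICAR at its top. The difference was 1.31 (-1.39 to 4.01) with that pair and 3.27 (2.37 to 4.16) without it.

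In non-RB cows, IL1A in the ipsilateral horn measured -4.53, -4.48, -1.35 and -5.73 in CAR and -7.82, -4.78, -3.42 and -6.34 in ICAR. The areas overlapped: ICAR replicates 2 and 3, both nearer the gland level of CAR, were the highest of their group, and ICAR replicate 1 was not well above background. The difference was 1.57 (-0.83 to 3.96) over all 8 arrays and 3.06 (0.47 to 5.65) without replicates 2 and 3 of ICAR. In the contralateral horn, IL1A measured -4.46, -3.79, -1.79 and -3.83 in CAR and -6.35, -5.46, -5.35 and -6.60 in ICAR. Every CAR array lay above every ICAR array, with a difference of 2.47 (1.17 to 3.78). CAR replicate 2 and ICAR replicate 1 were the arrays of slide 1, with 351 and 100 spots flagged as outliers. No array of another slide had more than 29. Replicate 3 held the highest non-RB value of IL1A in both areas of both horns.

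**Figure D1:**
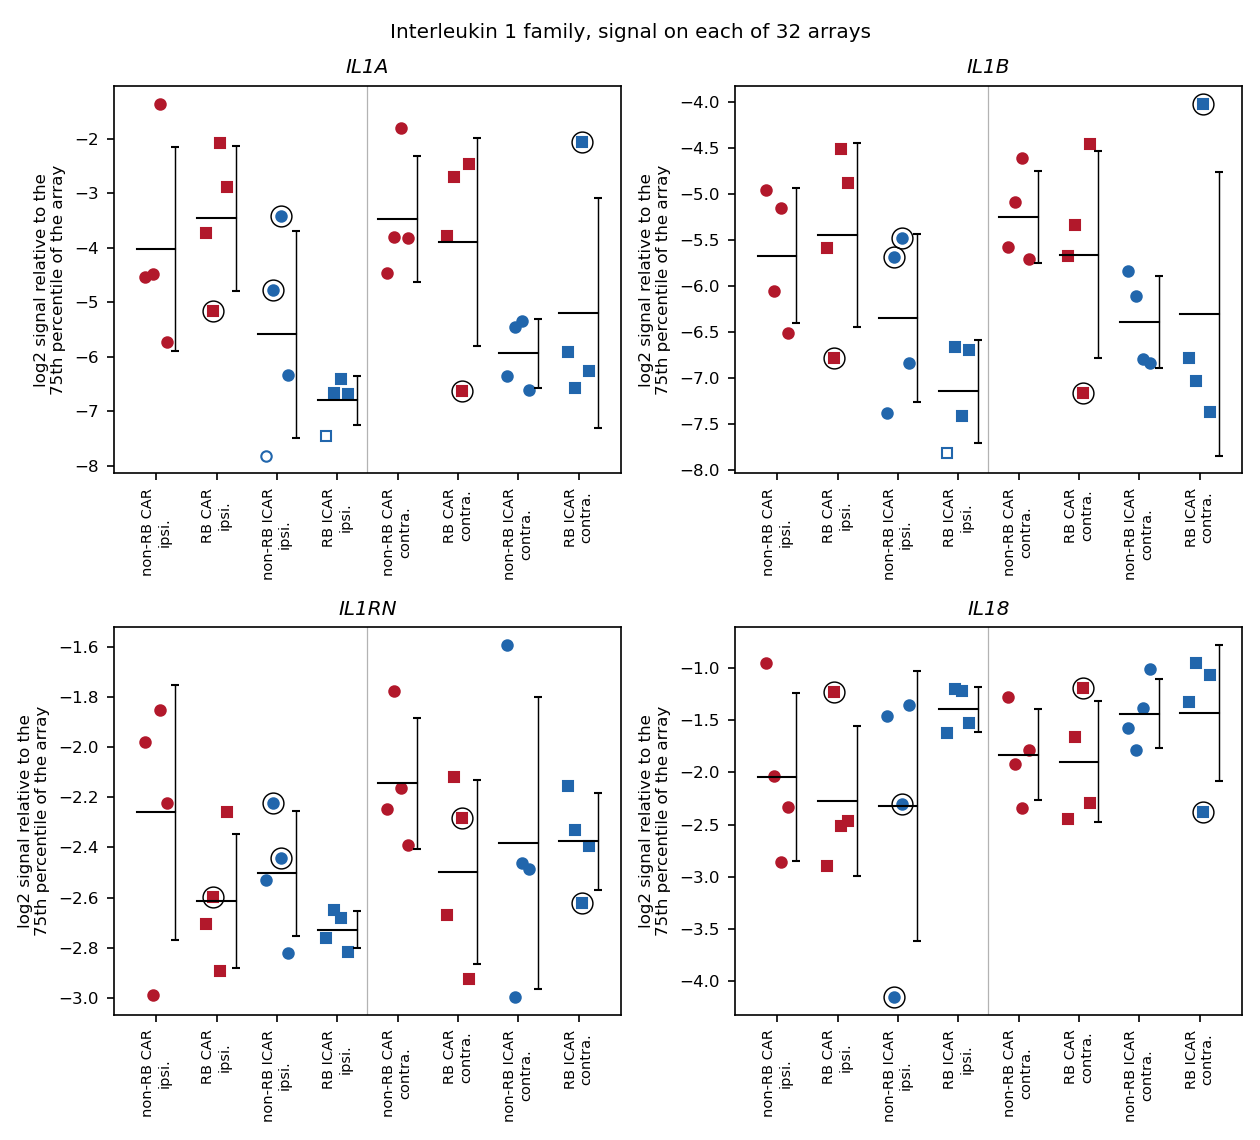
Log2 signal set against the array's own 75th percentile (vertical axis, a scale for each panel) of IL1A, IL1B, IL1RN and IL18 on each of 32 arrays, by group (horizontal axis). Red is CAR and blue is ICAR, circles are non-RB and squares RB, open symbols were not well above background, rings mark the 5 arrays nearer the gland level of the other area, bars give the mean and the SD of 4 arrays. IL1A was -3.71 ± 1.46 in CAR and -5.88 ± 1.45 in ICAR. The ringed ICAR arrays lie at the top of their groups for IL1A and IL1B, and at the bottom for IL18.

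IL1B had the same order of areas as IL1A, with smaller differences. In the ipsilateral horn of RB cows it measured -5.59, -6.78, -4.50 and -4.88 in CAR and -7.81, -6.66, -7.41 and -6.70 in ICAR, where ICAR replicate 1 was not well above background. CAR replicate 2, the array with the high gland mean, lay inside the ICAR range, and the other three CAR arrays lay above it. The difference was 1.71 (0.61 to 2.80), and 2.15 (1.30 to 3.01) without that array. In the contralateral horn of RB cows IL1B measured -5.67, -5.34, -7.17 and -4.46 in CAR and -6.79, -7.04, -4.01 and -7.37 in ICAR. The pair labelled replicate 3 again held the lowest CAR and the highest ICAR value, and the difference was 0.64 (-1.19 to 2.47) with the pair and 1.91 (1.09 to 2.73) without it.

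In non-RB cows IL1B in the ipsilateral horn measured -4.95, -6.05, -5.16 and -6.51 in CAR and -7.38, -5.68, -5.48 and -6.84 in ICAR. These overlapped, with a difference of 0.68 (-0.46 to 1.81) that was 1.44 (0.28 to 2.60) without ICAR replicates 2 and 3. In the contralateral horn it measured -5.58, -5.09, -4.61 and -5.70 in CAR and -5.83, -6.11, -6.79 and -6.84 in ICAR. There the lowest CAR array lay just above the highest ICAR array, and the difference was 1.15 (0.35 to 1.95). That ICAR array, replicate 1, lay on slide 1 and had 100 spots flagged as outliers and the lowest 75th percentile of all arrays (1165). With the values background-corrected by normexp the IL1B difference was 0.0054 (-1.44 to 1.45). Normexp added an offset of 50, where the median intensity of IL1B was 44.4. The median over all probes in this comparison also moved with normexp, from 0.04 to -0.18, and the cause of the change was not tested.

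IL1RN, the antagonist, had close means in CAR and ICAR. Its CAR values in the ipsilateral horn were -2.71, -2.60, -2.89 and -2.26 in RB cows and -1.98, -2.99, -1.85 and -2.22 in non-RB cows. Its ICAR values there were -2.76, -2.65, -2.68 and -2.82 in RB cows and -2.53, -2.22, -2.44 and -2.82 in non-RB cows. The areas overlapped in both groups of cows, with differences of 0.11 (-0.33 to 0.56) in RB and 0.24 (-0.43 to 0.92) in non-RB cows. In the contralateral horn CAR measured -2.67, -2.12, -2.28 and -2.93 in RB cows and -2.24, -1.78, -2.16 and -2.39 in non-RB cows. ICAR measured -2.16, -2.33, -2.62 and -2.39 in RB cows and -1.59, -3.00, -2.46 and -2.48 in non-RB cows. The differences were -0.12 (-0.63 to 0.38) and 0.24 (-0.51 to 0.99), and all 4 intervals hold 0. Without the arrays nearer the other gland level, RB contralateral gave -0.28 (-0.88 to 0.32) and non-RB ipsilateral 0.42 (-0.49 to 1.32). Over all arrays the difference was 0.12 for IL1RN, beside 2.17 for IL1A and 1.04 for IL1B, and the difference between members was not tested.

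The mean of IL18 was lower in CAR than in ICAR in 3 of the 4 combinations of cows and horn. In the ipsilateral horn of RB cows it measured -2.89, -1.23, -2.51 and -2.46 in CAR and -1.63, -1.20, -1.22 and -1.53 in ICAR. CAR replicate 2 lay inside the ICAR range and the other three below it, and the difference was -0.88 (-1.65 to -0.11), or -1.23 (-1.75 to -0.70) without that array. In the contralateral horn of RB cows IL18 measured -2.44, -1.66, -1.19 and -2.29 in CAR and -1.32, -0.96, -2.38 and -1.07 in ICAR. The pair labelled replicate 3 was here the highest CAR and the lowest ICAR array, and the difference was -0.47 (-1.35 to 0.41) with it and -1.02 (-1.64 to -0.40) without it.

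In the ipsilateral horn of non-RB cows IL18 measured -0.96, -2.03, -2.86 and -2.33 in CAR and -1.46, -4.15, -2.31 and -1.36 in ICAR. The lowest IL18 value of all 32 arrays, -4.15, was ICAR replicate 2, an array nearer the gland level of CAR. The difference of 0.28 (-1.14 to 1.69) turned to -0.63 (-1.83 to 0.56) without ICAR replicates 2 and 3, and both intervals hold 0. In their contralateral horn IL18 measured -1.28, -1.92, -2.34 and -1.79 in CAR and -1.57, -1.79, -1.39 and -1.01 in ICAR, with a difference of -0.39 (-1.07 to 0.29).

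**Figure D2:**
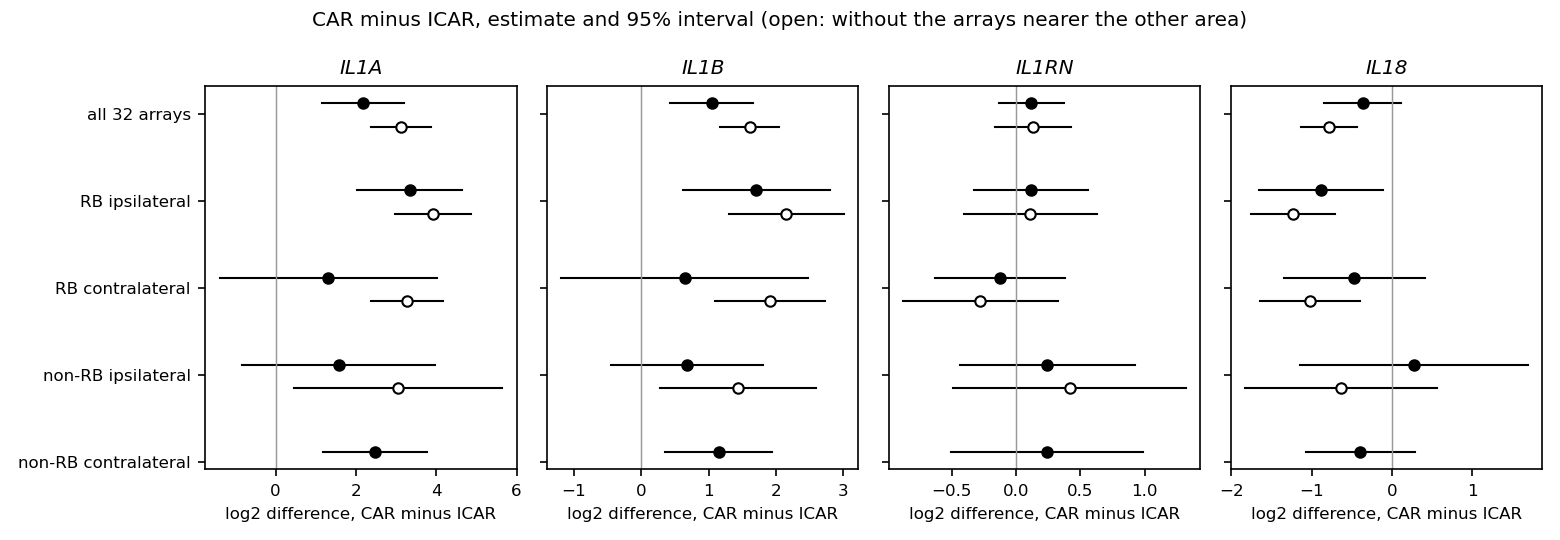
CAR minus ICAR (horizontal axes, log2, a scale for each panel) of the 4 members over all 32 arrays and within cows and horn, with 95% intervals from limma; open symbols leave out the arrays nearer the gland level of the other area, and non-RB contralateral had none. IL1A is right of 0 in each comparison (2.17 over all arrays), IL1RN straddles it (0.12), and IL18 lies left of it except in the ipsilateral horn of non-RB cows (0.28).

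Across all probes the area difference was uneven, and it gives the background for these values. Over all 32 arrays, 174 of the 12919 probes tested passed limma (adjusted p under 0.05), or 1.35%, and IL1A was the 1 member of 4 called. Within RB ipsilateral it called 2 of 13006 probes (0.0154%) and 0 of 4 members. Within RB contralateral, non-RB ipsilateral and non-RB contralateral it called 0% of probes and 0 of 4 members, with 70, 49 and 451 probes at an unadjusted p under 0.05. The unpaired t-test that the methods name called none after adjustment in any of these 5 comparisons, with 2094, 1926, 83, 53 and 385 probes at an unadjusted p under 0.05. The members were chosen by this contrast, so nothing is read from their count, and whether the area difference itself differed between RB and non-RB cows was not tested.

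Read instead as groups that did not overlap, 1 of 4 members separated in RB ipsilateral, where 9.48% of all probes did. Among the 3 remaining comparisons, 0 of 4 members separated in RB contralateral (0.342% of probes), 0 of 4 in non-RB ipsilateral (0.231%) and 2 of 4 in non-RB contralateral (1.9%). As replicate numbers were left out one at a time, the difference over all arrays stayed between 1.94 and 2.50 for IL1A and between 0.86 and 1.21 for IL1B. With normexp the difference was 1.26 (0.52 to 2.0) for IL1A and 0.38 (-0.08 to 0.83) for IL1B. Within RB ipsilateral, RB contralateral, non-RB ipsilateral and non-RB contralateral, normexp gave 2.05, 0.97, 0.94 and 1.1 for IL1A. For IL1B it gave 0.77, 0.38, 0.35 and 0.0054 in the same order.

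The area difference of the agonists was present within slides and within scan sessions, a session being the calendar month of the scan date. Of the 8 slides, 6 held both areas, and IL1A was higher in CAR within each of the 6, by 1.29 to 3.31. Those slides held 1 to 4 arrays of an area, and slide 1 held 1 of each. The members were chosen on this contrast, so these values describe it and are no separate support. IL1B was higher in CAR within the same 6 slides, by 0.33 to 1.94. IL18 was lower in CAR within 5 of the 6, and IL1RN was higher in 5 of 6, by at most 0.35. Within the 4 sessions IL1A differed by 1.72 to 2.70 and IL1B by 0.73 to 1.44. Without the 5 arrays the same 6 slides gave 1.69 to 4.17 for IL1A, 0.73 to 2.31 for IL1B and -1.03 to -0.03 for IL18.

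The level of gland markers moved with these values inside each area as well. Over the 16 arrays of an area, the correlation with the gland mean was -0.83 in CAR and -0.90 in ICAR for IL1A, and -0.80 and -0.85 for IL1B. For IL18 it was 0.51 in CAR and 0.69 in ICAR, and for IL1RN -0.06 and -0.01. Leaving out the pair labelled RB contralateral 3 (15 arrays an area) gave -0.76 and -0.82 for IL1A, -0.70 and -0.72 for IL1B, and 0.39 and 0.71 for IL18. The arrays share cows and slides, so these are descriptions, and the part of gland markers in the area difference was not tested. IL1A and IL1B followed each other, with a correlation of 0.85 in CAR and 0.89 in ICAR, whereas IL1A and IL18 ran opposite, at -0.61 and -0.56.

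**Figure D3:**
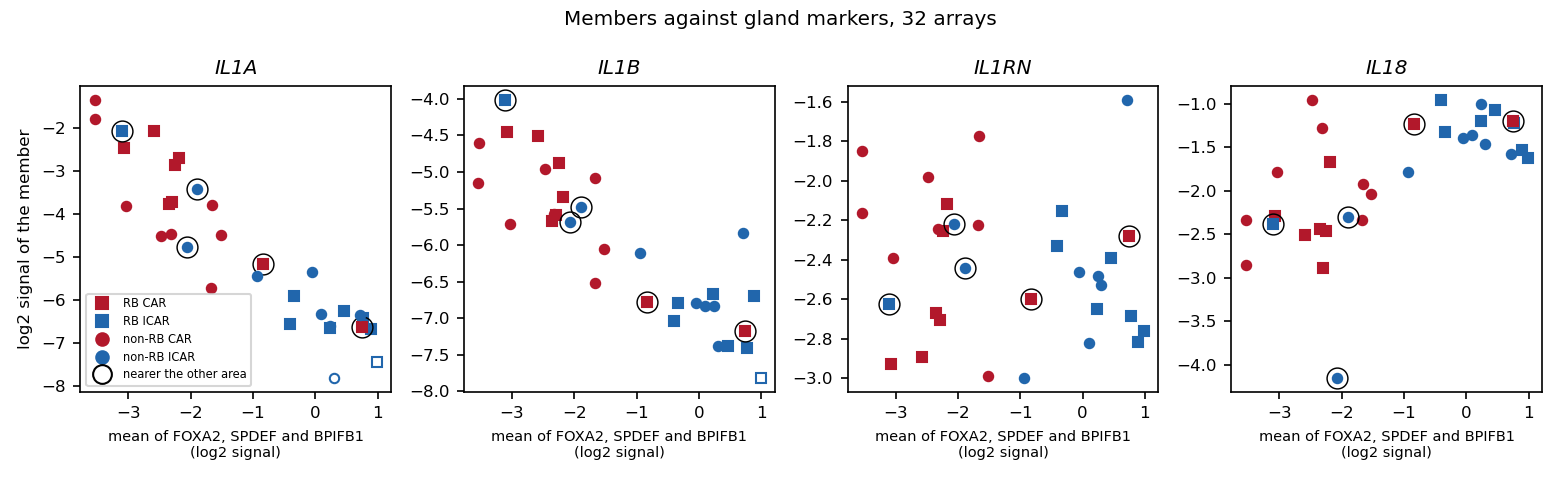
Log2 signal of each member (vertical axes) against the mean log2 signal of FOXA2, SPDEF and BPIFB1 (horizontal axes) on 32 arrays; colours, shapes, open symbols and rings are as in the plot of values by array. IL1A and IL1B fall as the gland mean rises (correlation -0.83 and -0.80 in CAR), IL18 rises (0.51) and IL1RN is level (-0.06).

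The array labelled RB ICAR contralateral 3 carried IL1A at -2.06, IL1B at -4.01 and IL18 at -2.38. On the remaining arrays, without the 5, CAR averaged -3.40 for IL1A, -5.29 for IL1B and -2.13 for IL18 (14 arrays), and ICAR -6.45, -6.89 and -1.35 (13 arrays). Its values thus lay nearer CAR for these 3 members, whereas IL1RN, at -2.62, lay nearer ICAR (-2.51) than CAR (-2.37). The array labelled RB CAR contralateral 3 had IL1A at -6.64, IL1B at -7.17 and IL18 at -1.19, nearer ICAR for each, while IL1RN at -2.28 lay nearer CAR. Without the 5 arrays the difference over all others was 3.12 (2.37 to 3.86) for IL1A, 1.61 (1.17 to 2.05) for IL1B, 0.13 (-0.17 to 0.42) for IL1RN and -0.79 (-1.13 to -0.44) for IL18.

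The comparison of RB with non-RB cows asked whether the family differed with fertility. For IL1A in CAR, RB cows averaged -3.46 ± 1.33 (SD, 4 arrays) and non-RB cows -4.02 ± 1.87 in the ipsilateral horn, a difference of 0.56 (-1.46 to 2.59) that was 1.13 (-0.87 to 3.13) without RB CAR replicate 2. In contralateral CAR the averages were -3.89 ± 1.92 and -3.47 ± 1.16, a difference of -0.43 (-2.53 to 1.68) that was 0.49 (-0.99 to 1.96) without RB replicate 3. In ipsilateral ICAR RB cows averaged -6.80 ± 0.45 and non-RB cows -5.59 ± 1.91. That difference of -1.21 (-3.02 to 0.60) became 0.28 (-0.82 to 1.38) without the arrays labelled non-RB ICAR 2 and 3. The 3 gland markers were themselves higher in RB cows in ipsilateral ICAR, by 1.30 to 1.89. Leaving out non-RB arrays of low gland level therefore lessens by construction any difference that follows the glands, for each member. In contralateral ICAR the difference was 0.74 (-1.34 to 2.82), and -0.31 (-1.18 to 0.57) without RB replicate 3. There the 3 gland markers were lower in RB cows, with differences of -1.27 to -0.52. In contralateral CAR the 4 gland markers tested differed by -0.03 to 1.33, with a median of 0.72. Leaving out RB replicate 3, of high gland level in CAR and low in ICAR, likewise moves by construction any difference that follows the glands.

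IL1B differed between RB and non-RB cows by 0.23 (-0.94 to 1.39) in ipsilateral CAR, or 0.68 (-0.33 to 1.69) without RB CAR replicate 2. In contralateral CAR it differed by -0.41 (-1.62 to 0.80), and by 0.09 (-0.81 to 0.99) without RB replicate 3. In ipsilateral ICAR the difference was -0.80 (-1.84 to 0.24), and -0.04 (-0.96 to 0.89) without the same pair of non-RB arrays. In contralateral ICAR it was 0.09 (-1.47 to 1.65), and -0.67 (-1.43 to 0.09) without RB replicate 3. The agonists thus had no direction between RB and non-RB cows that held across areas and horns.

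IL1RN differed between RB and non-RB cows by -0.35 (-1.03 to 0.33) in ipsilateral CAR, -0.22 (-0.67 to 0.23) in ipsilateral ICAR and -0.35 (-0.93 to 0.23) in contralateral CAR. In contralateral ICAR it differed by 0.01 (-0.69 to 0.71). Without the arrays nearer the other gland level these 4 differences were -0.36, -0.05, -0.43 and 0.09. IL18 differed by -0.23 (-1.27 to 0.81) in ipsilateral CAR, -0.07 (-0.85 to 0.71) in contralateral CAR and 0.01 (-0.78 to 0.80) in contralateral ICAR. Without those arrays they were -0.58 (-1.56 to 0.40), -0.30 (-1.06 to 0.45) and 0.32 (-0.29 to 0.93). Its largest difference, 0.93 (-0.32 to 2.17) in ipsilateral ICAR, was 0.02 (-0.52 to 0.56) without non-RB replicates 2 and 3. All 16 intervals hold 0, with and without those arrays. With normexp the differences in contralateral ICAR were -0.06 for IL1A, -0.46 for IL1B, -0.09 for IL1RN and -0.08 for IL18, so each turned its sign. The median over all probes in that comparison moved too, from 0.02 to -0.20, and the cause of the changes of sign was not tested.

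Averaged over the 4 arrays of a replicate number, IL1RN ranged from -2.62 to -2.42 in RB cows and from -2.50 to -2.09 in non-RB cows. The means were -2.55 ± 0.09 and -2.32 ± 0.20 (SD, 4 numbers each), a difference of -0.23 (-0.59 to 0.13). IL1A averaged -4.84 ± 0.48 in RB and -4.76 ± 1.29 in non-RB cows, where non-RB number 3 stood highest at -2.98. IL1B averaged -6.14 ± 0.37 and -5.91 ± 0.41, and IL18 -1.75 ± 0.34 and -1.91 ± 0.53. The differences were -0.08 (-1.36 to 1.19) for IL1A, -0.22 (-0.81 to 0.36) for IL1B and 0.16 (-0.48 to 0.80) for IL18. Without the 5 arrays they were -0.13 for IL1A, -0.24 for IL1B and -0.25 for IL1RN. For IL18 the difference lay between -0.03 and 0.36 over all alternatives, that without the 5 arrays among them.

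As groups that did not overlap, few probes of any kind separated RB from non-RB cows. In CAR ipsilateral, ICAR ipsilateral, CAR contralateral and ICAR contralateral, 0 of 4 members did not overlap, against 1.97%, 2.23%, 1.37% and 1.48% of all probes, and nothing is read from a count this near the background. By limma 0% of probes were called in each of these 4 comparisons and in that of the averages, with 446, 475, 228, 208 and 286 probes at an unadjusted p under 0.05. The methods' t-test also called none after adjustment, with 462, 457, 239, 262 and 292 unadjusted. RB and non-RB arrays of the same area shared only 2 slides, on which each side held 1 or 2 arrays and horns were not separated. RB minus non-RB in ICAR was -2.09 and -1.56 for IL1A, -0.90 and -1.40 for IL1B, and 0.55 and 1.49 for IL18. The non-RB side of each slide held an array nearer the gland level of CAR, and without it the values were -1.12 and -1.22 for IL1A, -0.24 and -1.19 for IL1B, and 0.09 and 0.31 for IL18. In CAR the same slides gave -0.88 and 0.69 for IL1A, -0.06 and -0.09 for IL1B, and -0.04 and -1.17 for IL18. IL1RN gave -0.15 and 0.15 in ICAR and -0.43 and -0.42 in CAR. On the remaining slides RB and non-RB arrays of an area cannot be compared, and the part of the slide in the ICAR difference was not tested.

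**Figure D4:**
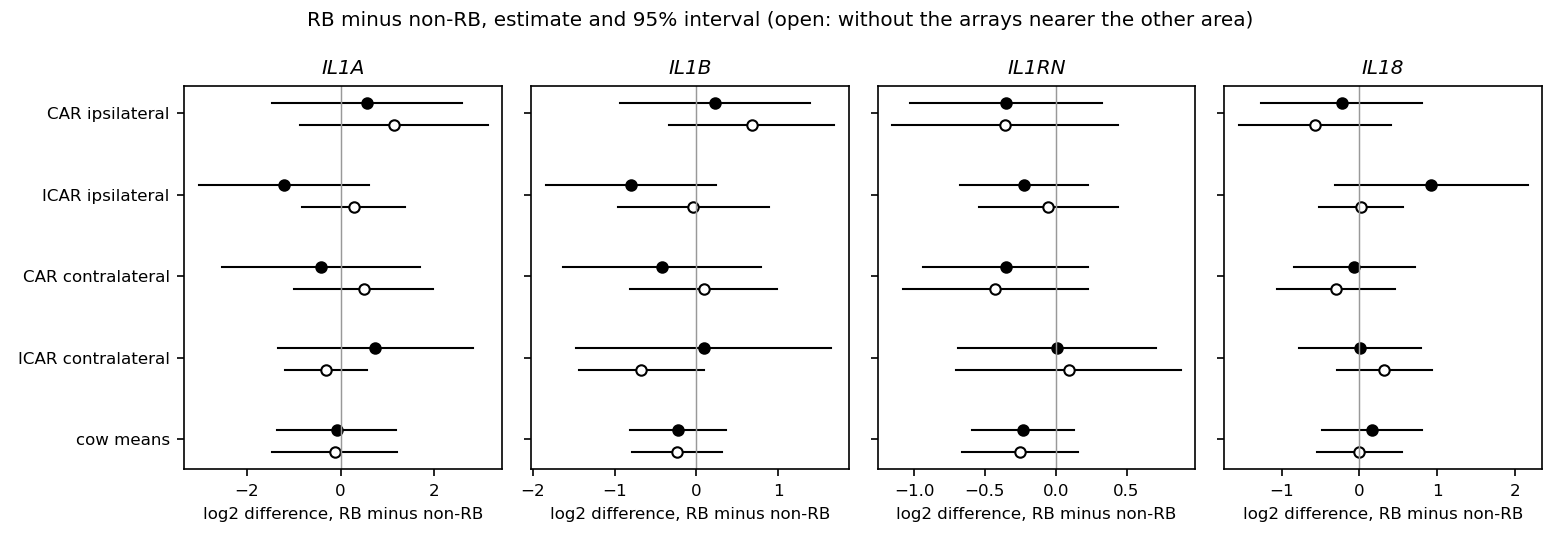
RB minus non-RB (horizontal axes, log2, a scale for each panel) of the 4 members within area and horn and over the averages of each replicate number, with 95% intervals from limma; open symbols leave out the arrays nearer the gland level of the other area. Every interval crosses 0, and the ICAR ipsilateral differences of IL1A (-1.21), IL1B (-0.80) and IL18 (0.93) move to 0.28, -0.04 and 0.02 without those arrays. In that comparison, leaving out non-RB arrays of low gland level lessens by construction any difference that follows the glands. Leaving out RB replicate 3 in the contralateral horn also moves such a difference by construction.

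The side of the corpus luteum was not used in choosing the members and could be tested. IL1A averaged -4.97 ± 1.91 (SD, 16 arrays) in the ipsilateral and -4.63 ± 1.74 in the contralateral horn, a difference of -0.34 (SE 0.50). IL1B differed by -0.25 (SE 0.30), IL1RN by -0.18 (SE 0.12) and IL18 by -0.36 (SE 0.24), each with the lower mean on the ipsilateral side. None passed limma's test (adjusted p = 1.0 for each member). Of all probes 0% were called, with 176 at an unadjusted p under 0.05 by limma and 202 by the methods' t-test. The 95% intervals were -1.36 to 0.68 for IL1A, -0.86 to 0.36 for IL1B, -0.43 to 0.07 for IL1RN and -0.84 to 0.12 for IL18. Without the 5 arrays the differences were -0.58, -0.31, -0.20 and -0.21 in that order, and again none passed. The 16 arrays of a horn are 2 areas of the same 8 cows and entered the fit as independent. With the replicate number as a block, no member passed either (adjusted p = 0.993 for each by limma). Such p-values measure only the spread among these arrays, whose number limits the precision.

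The rest of the pathway was read from lists of 117 genes, of which 65 had a probe and 54 were bright enough to test between areas. None of the 54 passed limma's test between CAR and ICAR (0 called, 2 at an unadjusted p under 0.05, and 0 by the methods' t-test after adjustment). Those 2 were 3.70% of the list, against 16.2% of all probes at that threshold. They were MAP2K6, a kinase upstream of p38, with a difference of 0.40 (adjusted p = 0.107), and CCL2, a monocyte chemokine, with 0.56 (adjusted p = 0.243), named here after their values were seen. Between averages of RB and non-RB cows and between horns, 0 of 54 were called, and 0 had an unadjusted p under 0.05.

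Among direct partners, CASP1, the protease that matures IL1B and IL18, was -3.20 ± 0.41 (SD, 16 arrays) in CAR and -3.24 ± 0.44 in ICAR, a difference of 0.05 (SE 0.15). MYD88, the adaptor of the receptors, was -7.03 ± 0.95 and -6.93 ± 0.74, a difference of -0.10 (SE 0.28), and was well above background on 14 of 16 arrays of each area. IL18RAP, the accessory chain of the IL18 receptor, was well above background on 5 CAR and 2 ICAR arrays and was too dim to test. Neither tested partner passed (0 of 2).

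Of 18 genes of the inflammasome and of cytokine release, 6 had a probe and 0 of 5 tested were called, with differences from -0.20 to 0.21 and a median of -0.06. Of 40 genes of receptor signalling, 18 had a probe, all 18 were tested and 0 were called, from -0.31 to 0.40 with a median of -0.06. Of 43 genes known to be induced by IL-1, 38 had a probe, 29 were tested and 0 were called, from -0.84 to 0.78 with a median of 0.01. The median over all probes was 0.02. Within the induced genes, PTGES, the terminal synthase of prostaglandin E2, measured 0.61 (-0.12 to 1.34), PTGS2, the cyclooxygenase that feeds it, -0.21 (-0.77 to 0.35), and the chemokine CXCL8 -0.06 (-0.79 to 0.66). These 3 were named after their values were seen. With the replicate number as a block, 2 were called, MAP2K6 higher and PTX3 lower in CAR, and without the 5 arrays 3 were (IKBKB, MAP2K6 and PTX3).

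**Figure D5:**
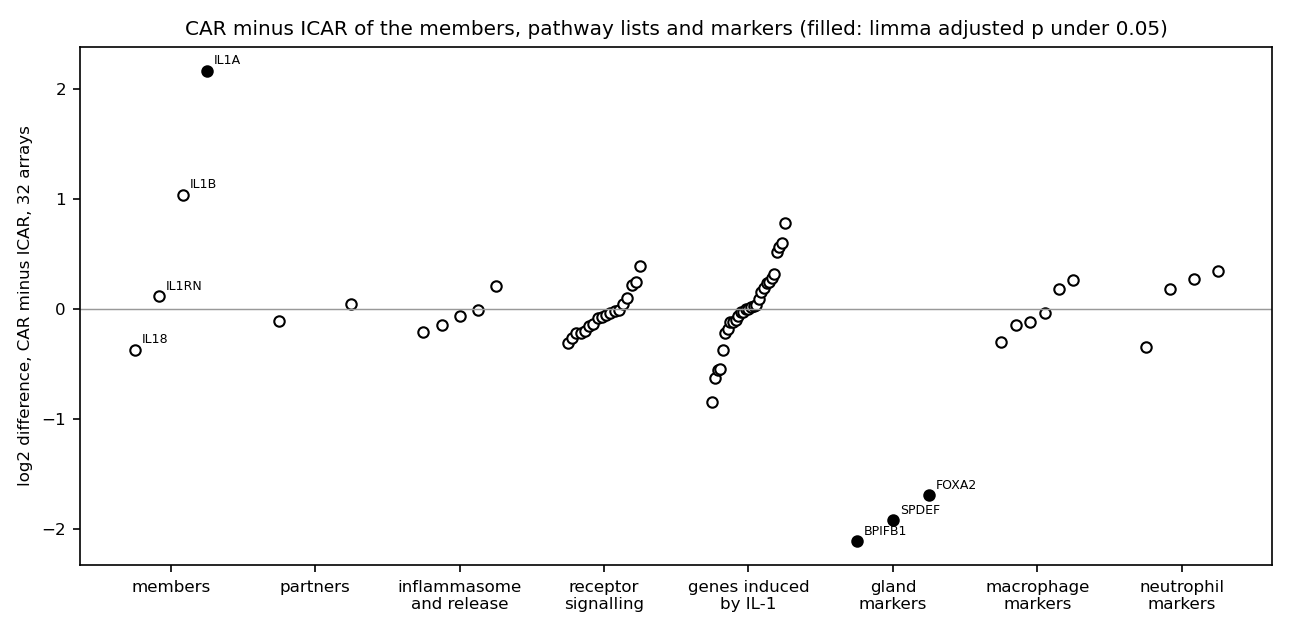
CAR minus ICAR over 32 arrays (vertical axis, log2) for each tested gene of the members, of the 4 pathway lists and of gland, macrophage and neutrophil markers (horizontal axis, ordered by value within a list); filled symbols passed limma at an adjusted p under 0.05. IL1A (2.17) and IL1B (1.04) lie above every pathway gene (highest 0.78), and the 3 gland markers (-2.11 to -1.69) lie lowest. The members were chosen on this contrast, so nothing is read from their place beside the lists or from a filled symbol.

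Markers of other cells that can make these cytokines were measured beside them. The mean of 6 usable macrophage and monocyte markers was -2.59 ± 0.49 in CAR and -2.57 ± 0.51 in ICAR, and that of 4 neutrophil markers -3.36 ± 0.64 and -3.48 ± 0.41, with 0 of 6 and 0 of 4 called. Over single arrays the macrophage mean lay between -3.85 and -2.01 in CAR and between -4.22 and -1.98 in ICAR. The neutrophil mean lay between -4.45 and -2.12 in CAR and between -4.54 and -2.94 in ICAR, so the areas overlapped in both lists. The 3 gland markers were all called lower in CAR, with differences of -1.69 for FOXA2, -1.92 for SPDEF and -2.11 for BPIFB1. The mean of 7 epithelial markers was 0.06 ± 0.45 in CAR and 0.46 ± 0.53 in ICAR. That of 5 stromal markers was 0.78 ± 0.25 and 0.49 ± 0.38. None of either list was called. The part of any of these cells in the values of the agonists was not tested.

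Among 4957 named genes, with the members themselves left out, the 3 whose pattern over the 32 arrays was most like that of IL1A were GJA1, a gap junction protein, with a correlation of 0.95, the gene named polycystin-L2 by the array (0.94) and PTN, a growth factor (0.94). GJA1 was called higher in CAR by 1.41. For IL1B they were CHRM2, a muscarinic receptor (0.86), TAC3 (0.86) and DISP1 (0.86). For IL18 they were RAB19 (0.90), HPRT1 (0.88) and NECTIN4, an adhesion protein of epithelia (0.87). For IL1RN, MX2, an interferon-induced gene, had a correlation of 0.67 and ENDOG of 0.64, both lower than the values named for the other three members. The arrays share cows and slides, and these correlations are a description.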

How the data were processed

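RNA of 32 endometrial samples was hybridised to 1-colour 60-base Agilent arrays. The authors' scanner files hold deposited intensity values (processed signal after background subtraction) from Agilent Feature Extraction 9.5, as the submitters' processing notes name it. The deposited series table holds log2 values that the authors made in GeneSpring, equal to the values used here plus a constant of 0.0042 to 0.0140 an array, and served as an alternative. Each array's 75th percentile (1165 to 4857) was subtracted on the log2 scale. Control spots were left out and outlier spots set missing. Of all probes, 74.3% to 85.8% were well above background on an array.

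Symbols came from the reference table for 2496 probes, from the files for 3374, and 9338 had none. Probes that stood well above background on 8 or more of 32 arrays, or on 2 or more of 8, with at least 3 values a side, entered limma 3.58.1 (R 4.3.3, lmFit and eBayes, Benjamini-Hochberg over all probes, threshold 0.05). Fits over all arrays held cow group, area and horn. RB and non-RB cows were also compared over averages of each replicate number. The procedure was tested on simulated data. The members and lists were chosen with earlier results of these data known. Named genes were the members, their direct partners, called genes of each list (at most 3 a direction) and the 3 symbols most correlated with each member, of which 1 is not reported here. MAP2K6, CCL2, PTGES, PTGS2, CXCL8, PTX3 and IKBKB fall outside that rule and were named after their values were seen.

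Alternatives were other filters, quantile normalization, normexp with an offset of 50, the deposited table and the methods' t-test. Blocks were also fitted for replicate number, slide (8) and scan session (4, the calendar months of scanning), and replicates or arrays were left out. Same-numbered arrays of a cow group deviated together, with a mean correlation of 0.41 in RB cows (22 of 24 pairs over 0.1) and 0.38 in non-RB cows (21 of 24), and 15 of 16 arrays in each correlated best with their own number. Not every pair passed 0.1 and no label ties a number to a cow, so the block was kept as an alternative. Besides the gland, macrophage and neutrophil lists, 0 of 7 epithelial, 0 of 5 stromal, 0 of 4 smooth muscle, 0 of 6 endothelial, 0 of 9 T and NK cell, 0 of 3 B and plasma cell and 0 of 2 red blood cell markers tested were called between CAR and ICAR. All 7 epithelial markers were lower in CAR (median -0.35, 3 at an unadjusted p under 0.05 by limma). All 5 stromal markers were higher (median 0.23, 2 at that threshold).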

Additional observations from a re-analysis of the deposited data

Results flagged for a closer look

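The IL1A value of the array labelled RB ICAR contralateral 3, -2.06, stood apart from the other three of its group, which lay between -6.57 and -5.91. Its gap to the nearest was 0.855 of the range of the group, above Dixon's 95% critical value for 4 samples. It was the 1 such value among 32 sets of 4 arrays (4 members in 8 groups), where chance alone gives about 1 in 20. The same array had a gland mean of -3.11, the lowest of ICAR, IL1B at -4.01 and IL18 at -2.38. Its counterpart labelled RB CAR contralateral 3 had IL1A at -6.64 and a gland mean of 0.75. On the position over all bright probes (positive towards CAR), the array labelled ICAR lay at 2.16 and the array labelled CAR at -1.26. Whether the labels of this pair belong to the other area was not tested.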

How the results depend on the processing

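Between CAR and ICAR over all arrays, the 174 called probes became 64 with normexp, 0 with the methods' t-test, 531 with scan session as a block, 0 without the 2 arrays of slide 1, 1282 without the pair labelled RB contralateral 3 and 2297 without the 5 arrays. Leaving out a replicate number gave 0 to 909 (710 without non-RB 2, 909 without RB 3, 0 for the other six). The 2 called in RB ipsilateral became 6 with probes bright on every array, 4 with quantile normalization, 62 with normexp, 0 with the methods' t-test and with slide or session as a block, 638 without CAR replicate 2, and 0 to 349 when a replicate was left out (349 without replicate 2). In RB contralateral the count was 0 to 102 (102 without replicate 3 and without its pair), in non-RB contralateral 0 to 8 (8 without replicate 2) and in RB against non-RB ICAR contralateral 0 to 1 (1 without non-RB replicate 1).

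With the replicate number as a block, 1086 probes were called between areas, 1 between horns and 2 pathway genes. Slide and session as blocks gave 1 between horns each. Pathway genes called were 0 to 1 when a replicate was left out (MAP2K6, without non-RB 2 or RB 3), 1 without the pair and 3 without the 5 arrays. The block left the members' differences over all arrays at the same values and changed no horn call of a member.

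With normexp, IL1A differed between areas by 2.05 in RB ipsilateral and 1.1 in non-RB contralateral, and IL1B by 0.772 and 0.00543. Slide as a block moved RB against non-RB in ICAR ipsilateral to -2.97 for IL1A, -1.68 for IL1B and -0.457 for IL1RN, and in ICAR contralateral to 0.455 for IL1RN. Session as a block moved IL18 in CAR contralateral to -0.63. RB against non-RB in ICAR contralateral, IL1A ranged from -0.684 to 1.20 and kept its sign under 13 of 18 alternatives. In CAR contralateral IL1B ranged from -0.815 to 0.360 and kept its sign under 14 of 18. Without the 5 arrays, ICAR ipsilateral gave 0.28 for IL1A and -0.0362 for IL1B. The causes were not tested. The direction of IL1A and of IL1B between areas over all arrays was the same under all 19 alternatives, from 1.26 to 3.12 and from 0.38 to 1.61. Slide and session blocks were not run for the averages of replicate numbers, and a filter for probes bright on every array leaves IL1A and IL1B without a value where they are dim.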
